A study of Mus musculus with 56 samples.

Results

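Cytosolic ribosomal protein genes encode the proteins that, with ribosomal RNA, make up the large and the small subunit of the ribosome. They were chosen by name, as protein-coding genes of the GENCODE vM21 annotation of GRCm38 with an Rpl, Rps, Rplp or Rpsa symbol, and matched to the count files by Ensembl identifier. All 83 of them were listed, 51 of the large and 32 of the small subunit, among 45513 genes. Liver mRNA of 56 female APOE*3Leiden.CETP mice was sequenced, 8 in each of 7 groups. These mice carry human transgenes that give them a lipoprotein metabolism like that of man. The CETP transgene is driven by the human gene's own flanking sequence, and the promoter of the APOE*3Leiden transgene is not given in the sources used here. Every mouse was taken into the study at 9 to 14 weeks of age and ate a Western-type diet with 15% cacao butter and 0.15% cholesterol. The control group received the vehicle by gavage, 5% carboxymethyl cellulose. Ponatinib at 3 or 10 mg/kg and nilotinib at 10 or 30 mg/kg were given 1 time a day with a further gavage of vehicle, and imatinib at 150 mg/kg 2 times a day. The smaller and the larger amount of a drug are called its low and its high dose below. The 3 drugs inhibit the BCR-ABL tyrosine kinase. The remaining group had vehicle gavage and 0.12 to 0.20% L-NAME, an inhibitor of nitric oxide synthase, in the drinking water. Drug treatment lasted 16 weeks, and the duration of L-NAME is not given in the sources used here.

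Ribosomal protein mRNAs are among the most abundant of the liver, a tissue that secretes large amounts of plasma protein. Many of them start with a terminal oligopyrimidine tract, a C followed by a run of C and T, through which the kinase mTORC1 and the protein LARP1 set their translation. Cells make the proteins in about equal numbers and degrade those that find no place in a ribosome. The genes have left many processed pseudogenes in the mouse genome, which are intronless copies of their mRNAs, so a short read of such an mRNA often fits several places.

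The reads counted on a member came from the part of its mRNA that could be placed. Of all 50-base windows of a member's principal transcript, a median of 49.4% also occurred in the transcripts of another annotated gene, and the median over tested protein-coding genes was 0%. At least 50% of the windows were shared in 41 of 83 members, against 3.92% of those genes. Rps3, a protein of the small subunit head, shared 2.96% of its windows and Rpl8 6.49%, whereas Rpl5 shared 93.8%, Rpl35 95.1% and Rps27 98.6%. Reads that aligned to several places were counted on no gene. The 83 members together held a median of 0.319% of the gene counts in control mice. Levels are given as CPM, the count scaled to library size with TMM factors, and levels of different genes are compared as CPM per kb of exon. The highest level per kb in control mice was that of Rplp1, a protein of the stalk that recruits elongation factors, at 367 CPM per kb. Rpl8 followed with 189, Rpl4 with 183 and Rps15 with 144 CPM per kb. At the other end 35 members had a mean under 10 CPM in control mice, and Rps6, the substrate of the S6 kinases, had 0.851 ± 0.965 CPM (SD, n = 8). Across the 83 members the shared part of the windows and the level per kb had a Spearman rho of -0.311, given as a description, since both depend on the same transcripts.

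The pseudogenes of the members were listed too, and some held many counts. For 57 members the files listed 265 pseudogenes named after them, with 569890 counts summed over the 56 mice, which equals 24.9% of the 2289634 counts on the members themselves. The deepest library weighs most in these sums. In 20 members the pseudogenes held more counts than the gene. Rps6 had 715 counts on the gene and 17897 on its named pseudogenes. Rps16 had 589 and 32919, Rps13 had 500 and 21824, and Rps10 had 5352 and 49890. For Rplp1 the 140123 counts on the gene stood against 3 on its pseudogene.

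**Figure D1:**
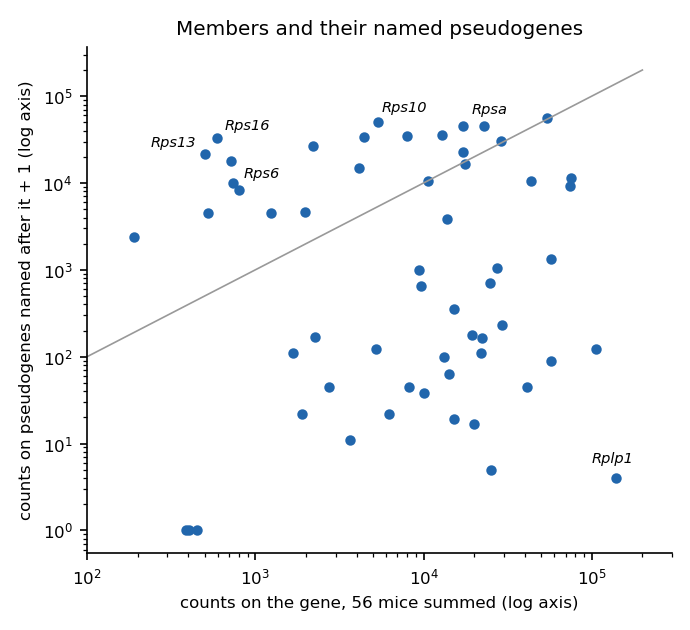
Counts on each of the 57 members with a named pseudogene (x axis, 56 mice summed, log axis) and on the pseudogenes named after it (y axis, plus 1, log axis), with a line at equal counts. The 20 points above the line are members with more counts on the pseudogenes, among them Rps6 with 715 against 17897.

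The start of the transcript was read from RefSeq on GRCm38.p6 to see which members carry the tract in the annotation. A tract was a C followed by at least 6 bases that are each C or T, on the transcribed strand, beginning within 10 bases of the annotated start. It was found at 30 of the 75 starts of 63 members, or 40.0%, and at 12.2% of the 32851 starts of all genes in the table, and 20 members had no entry. The following 30 bases around the start are shown because the counts of these genes are described below, with the tract in capitals.
Rpl14, chr9:120571502-120571531, plus strand: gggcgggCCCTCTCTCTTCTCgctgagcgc
Rps10, chr17:27635230-27635259, minus strand: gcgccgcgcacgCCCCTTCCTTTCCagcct
Rps6, chr4:86857353-86857382, minus strand: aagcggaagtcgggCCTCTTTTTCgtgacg
Rps27l, chr9:66946071-66946100, plus strand: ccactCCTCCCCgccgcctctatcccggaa
Rpl4, chr9:64173372-64173401, plus strand: ttccttttcctgtgggagcagccgggtaga
Rpl7l1, chr17:46782642-46782671, minus strand: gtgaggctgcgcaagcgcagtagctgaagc
Rpl14, Rps10 and Rps6 hold long tracts and Rps27l a tract of the shortest length that counted. Rpl4 had none by this definition, because its run of C and T begins farther than 10 bases before the RefSeq start. No match says only that the letters are absent from the window searched.

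The libraries held 5342379 to 97473341 gene counts, with a median of 7570238. The deepest, 1 L-NAME library, stood far above the next, which had 17996732. A nilotinib 10 mg/kg library and a ponatinib 10 mg/kg library lay farthest out on the second principal component. The labels name no batch. Hepatocyte markers were high in every group, with a summed level of 61525 to 142032 CPM over the 6 genes. In uniquely aligned reads, the part outside annotated genes was 7.85% in the median control mouse and 8.41% at the low ponatinib dose. It was 10.9% at the high dose, 9.51% and 9.84% for nilotinib in the same order, 9.80% for imatinib and 10.7% for L-NAME, so the groups with called members below were those with the higher share.

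The summed share of the members was higher in 5 treated groups than in control mice, and near the control level with ponatinib 3 mg/kg. Control mice had 0.282 to 0.357% of gene counts on the 83 members, with a median of 0.319%. The median was 0.342% at the low and 0.426% at the high ponatinib dose. Nilotinib mice had medians of 0.433% and 0.441% in the same order, imatinib mice 0.415% and L-NAME mice 0.464%. All 8 mice given either dose of nilotinib and all 8 given L-NAME were above every control mouse. The same held for 7 of 8 imatinib mice, for 7 of 8 at the high ponatinib dose and for 2 of 8 at the low one. Both subunits took part, and with L-NAME the ratio of medians to control was 1.43 for the large and 1.47 for the small subunit. In bulk liver, more RNA per cell and more cells of a type rich in these mRNAs cannot be told apart.

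**Figure D2:**
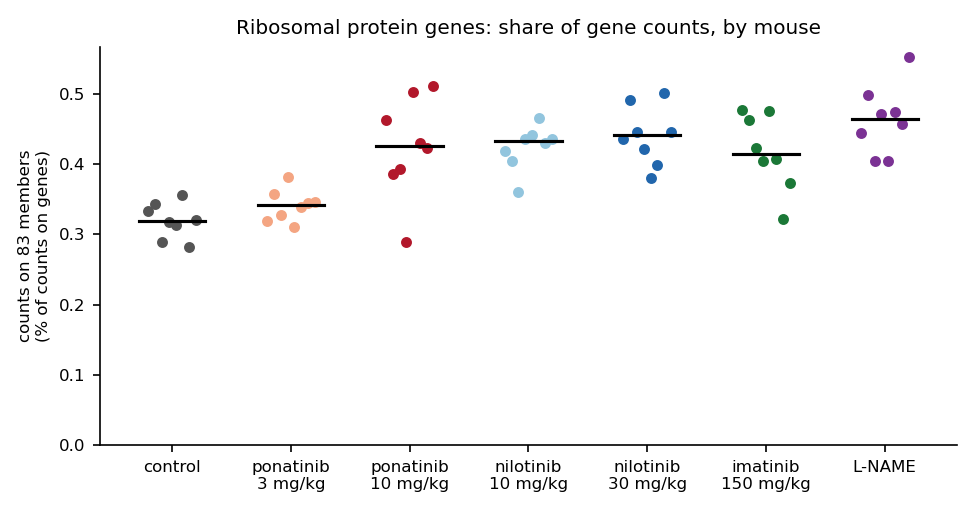
Counts on the 83 members as a percentage of all gene counts (y axis, from 0) in each of 8 mice per group (points) with the group median (bar). Control mice lie between 0.282 and 0.357%, and the L-NAME mice lie above all of them.

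Each group was compared with control by edgeR's quasi-likelihood test, fitted over 14314 genes in 56 mice, and a gene was called at a Benjamini-Hochberg adjusted p below 0.05. The filter on low counts left 79 members. Rpl3l, Rpl10l and Rpl39l, paralogs known from muscle or testis, had too few counts, as did Rpl38. Rpl10l had 0 counts in all 56 mice, which allows up to 3 counts, or 0.562 CPM in the shallowest and 0.0308 CPM in the deepest library. The 6 comparisons share the same 8 control mice.

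At the high ponatinib dose 33 of 79 tested members rose, or 41.8%, against 7.24% of all tested genes called higher. L-NAME gave 34 higher, 43.0% against 5.55%, and imatinib 30, 38.0% against 5.69%. Nilotinib gave 12 higher at the low dose, 15.2% against 0.468%, and 21 at the high dose, 26.6% against 2.34%. At the low ponatinib dose edgeR called 0 members, with 0.0% of all genes called higher and 0.0419% lower. DESeq2 also called 0 members there, and 47 genes in all, of which 8 were higher. There 14 members had an unadjusted p below 0.05, against 9.96% of all genes.

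No member was called lower in any of the 6 comparisons, although fold changes below 0 occurred. The log2 fold change was above 0 in 61 of 79 members at the low ponatinib dose, in 74 to 77 with the other doses of the drugs and in all 79 with L-NAME. Of all tested genes, 5.87% were called lower at the high ponatinib dose, 6.24% with L-NAME, 4.58% with imatinib, and 0.943% and 3.43% at the low and high nilotinib dose. The median log2 fold change over the 79 members was 0.55 at the high ponatinib dose, 0.61 with L-NAME and 0.50 with imatinib. It was 0.39 and 0.48 at the nilotinib doses and 0.20 at the low ponatinib dose, and the median over all tested genes lay between -0.02 and 0.03. At the unadjusted p below 0.01 that the study used, the members higher numbered 36 at the high ponatinib dose (8.19% of all genes), 36 with L-NAME (6.66%) and 34 with imatinib (6.85%). They numbered 26 and 30 at the nilotinib doses (2.32% and 4.11%) and 1 at the low ponatinib dose (1.4%), which was Rps20.

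A stricter view counts members for which all 8 treated mice were above all 8 control mice. L-NAME had 13 such members, against 0.999% of all genes, among them Rpl14, Rpl26, Rpl32, Rpl34 and Rpl39. The high nilotinib dose had 9 (0.461%) and the low dose 6 (0.147%). Imatinib had 4 (0.706%), among them Rplp0, Rps26 and Rps27l, and the high ponatinib dose had 2 (0.454%), among them Rps10. The low ponatinib dose had 0 (0.0419%).

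With the share of reads outside genes as a covariate, calls became fewer among members and among all genes. The shares of all genes in this paragraph count calls in either direction. Without the covariate or an offset these shares were 13.1% at the high ponatinib dose, 11.8% with L-NAME and 10.3% with imatinib. They were 5.77% and 1.41% at the high and low nilotinib dose. At the high ponatinib dose 16 members were called, against 2.58% of all genes, and the 1877 genes called there without the covariate became 369. L-NAME then had 17 members called, against 1.80% of all genes, and imatinib 17, against 4.56%. The high nilotinib dose had 6, against 0.671%, and the low dose 0, against 0.0908%. The members' median log2 fold change was 0.41 at the high ponatinib dose, 0.46 with L-NAME, 0.42 with imatinib and 0.35 and 0.33 at the high and low nilotinib dose in this fit. What that share contributes was not tested beyond this fit. Fold changes across genes also went with transcript length, with a Spearman rho of -0.170 to -0.267 between exonic length and log2 fold change over 14262 genes in the 6 comparisons, given as a description. With an offset for length and GC content the members' median was 0.40 with L-NAME and at the high ponatinib dose, and 0.37 with imatinib. It was 0.36 and 0.34 at the high and low nilotinib dose and 0.16 at the low ponatinib dose. With L-NAME 22 members were called in this fit, against 7.97% of all genes.

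**Figure D3:**
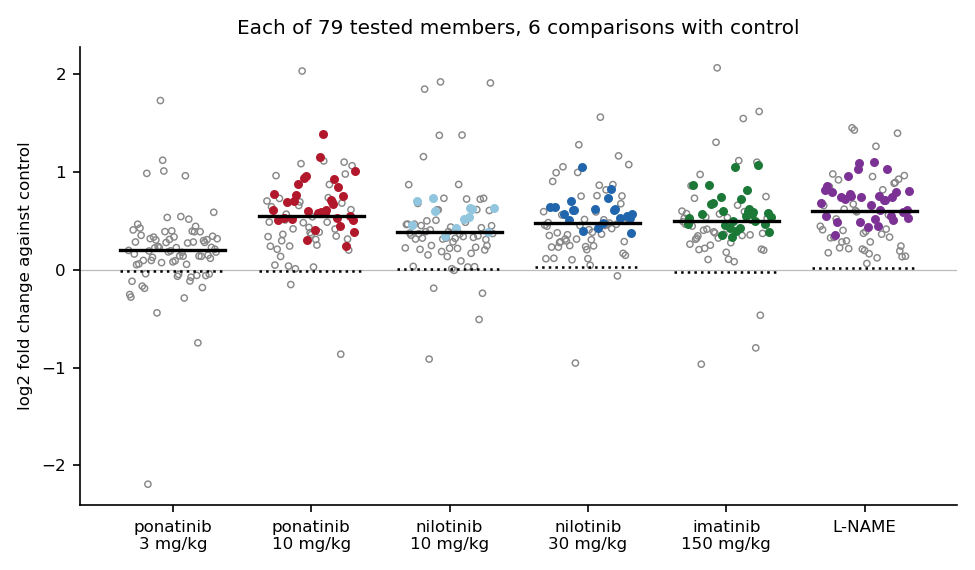
Log2 fold change against control (y axis) of each of the 79 tested members in 6 comparisons (x axis), with called members filled, all others open, the members' median as a solid line and the median of all tested genes as a dotted line. Every filled point lies above 0, and the group at ponatinib 3 mg/kg has none.

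The calls were also counted by depth, by shared sequence and by the tract. Of the 49 tested members with a median count of at least 100, 30 were called with ponatinib 10 mg/kg, 32 with L-NAME and 29 with imatinib. Of the 30 members below that count, 3, 2 and 1 were called, although their median log2 fold change was 0.69, 0.75 and 0.56. The share of all tested genes called higher was 7.24%, 5.55% and 5.69% in these comparisons, over genes of every depth. Genes of like depth, shared sequence or tract were not counted apart. Members with under 50% of their windows shared were called in 22 of 38 cases with ponatinib 10 mg/kg, and those with at least 50% shared in 11 of 41. Their median log2 fold changes were 0.52 and 0.62, so the group with fewer calls did not have the smaller median. Members with a tract at 1 listed start or more had a median of 0.54 with ponatinib 10 mg/kg, with 12 of 28 called. Members with none at any listed start, among them Rpl4 with its run outside the window, had 0.54, with 10 of 31 called. With L-NAME these medians were 0.68 and 0.41, with 13 of 28 and 10 of 31 called, and the difference was not tested.

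**Figure D4:**
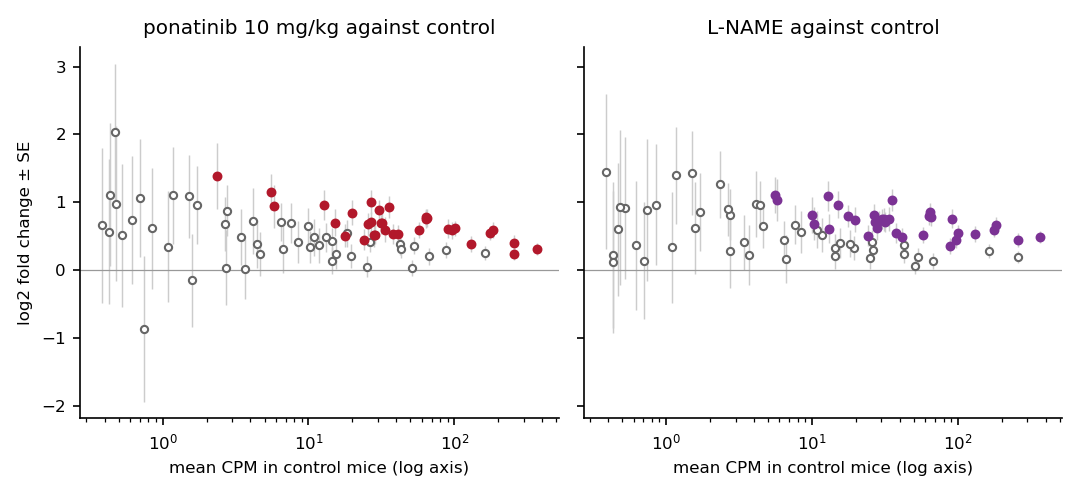
Mean CPM in control mice (x axis, log axis) and log2 fold change with its standard error (y axis) of the 79 tested members, for ponatinib 10 mg/kg and L-NAME against control, with called members filled. The called members lie mostly above 10 CPM, and the error bars widen to the left.

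Rpl4, which lines the tunnel through which the new protein leaves the ribosome, lies at chr9:64173375-64178666 and had the highest CPM of the members. Control mice had 353 to 399 CPM, with a median of 365. The range was 377 to 462 CPM with ponatinib 3 mg/kg and 351 to 542 with 10 mg/kg. Nilotinib mice had 427 to 512 CPM at 10 mg/kg and 407 to 532 at 30 mg/kg, imatinib mice 363 to 574 and L-NAME mice 445 to 639. All mice of both nilotinib groups and of the L-NAME group were above every control mouse, and the other groups overlapped with control. The log2 fold change was 0.49 ± 0.09 (SE) with L-NAME, by edgeR's adjusted p = 0.00011. It was 0.31 ± 0.09 with ponatinib 10 mg/kg (edgeR adjusted p = 0.0099) and 0.18 ± 0.09 with 3 mg/kg (edgeR adjusted p = 0.45). An exact two-sided permutation test of L-NAME against control gave p = 0.000155, the smallest that 8 mice against 8 allow. Rpl39 lines the same tunnel and had 9.53 to 18.9 CPM in control mice, with a median of 12.4. L-NAME mice had 21.8 to 37.7 CPM, with a median of 25.0, and did not overlap with control, whereas 1 mouse of the high ponatinib dose had 6.13 CPM and the median there was 25.1. The log2 fold change of Rpl39 was 1.09 ± 0.22 with L-NAME, 0.96 ± 0.22 at the high ponatinib dose and 1.05 ± 0.22 at the high nilotinib dose (edgeR adjusted p = 0.00045, 0.0015 and 0.0017). Rpl17, also found at the tunnel, had 0.0 to 3.64 CPM in control mice and passed in none of the 6 comparisons.

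Of the stalk proteins, Rplp1 had a median of 182 CPM in control mice, with a range of 145 to 231. Its median was 285 CPM with ponatinib 10 mg/kg, 279 with nilotinib 30 mg/kg and 284 with L-NAME. All 8 mice in the nilotinib 30 mg/kg and L-NAME groups exceeded every control mouse. The log2 fold changes of Rplp1 were 0.59 ± 0.12, 0.62 ± 0.12 and 0.66 ± 0.12 in these 3 groups (edgeR adjusted p = 0.00049, 0.00086 and 0.00015). Rplp0, which anchors the stalk, had 152 to 174 CPM in control mice, 180.0 to 223 with imatinib and 181 to 249 at the low nilotinib dose, and neither group overlapped with control. Rplp0 was called with imatinib (0.33 ± 0.10, edgeR adjusted p = 0.03), and its value was 0.32 ± 0.10 at the low nilotinib dose (edgeR adjusted p = 0.093). Rplp2 passed in no comparison with control, and its largest value was 0.96 ± 0.35 with L-NAME. Rpl8, which lies close to the peptidyl transferase centre, had 237 to 290 CPM in control mice, 240 to 464 at the high ponatinib dose and 311 to 486 with L-NAME. The L-NAME mice were all above control, and the log2 fold change of Rpl8 was 0.44 ± 0.11 there and 0.41 ± 0.11 at the high ponatinib dose (edgeR adjusted p = 0.0033 and 0.0065).

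Rps3, nearly free of shared windows, had 226 to 287 CPM in control mice and 240 to 348 at the high ponatinib dose, with overlap. Its log2 fold change was 0.24 ± 0.09 there (edgeR adjusted p = 0.049) and 0.15 to 0.21 in the other 5 comparisons with control, none of them called. Rps20, a neighbour of Rps3 in the head, had 25.7 to 46.5 CPM in control mice, 36.2 to 86.8 at the high ponatinib dose and 40.1 to 97.2 with L-NAME. In both groups 7 of 8 mice were above all control mice, and the log2 fold changes were 0.93 ± 0.17 and 1.03 ± 0.17 (edgeR adjusted p = 9.1e-05 and 4.4e-05).

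Rpsa, known also as the laminin receptor precursor, had 18.3 to 35.2 CPM in control mice, with a median of 26.4. With ponatinib 10 mg/kg the range was 27.2 to 75.7 CPM, with a median of 56.2, and 7 of 8 mice were above all control mice. That was a ratio of 2.01 in the fit (log2 1.01 ± 0.17, edgeR adjusted p = 6.8e-05). With the counts of its pseudogenes added, Rpsa was 0.77 ± 0.13 there. On the counts of the genes alone, Rps10 had the largest change among called members with L-NAME (1.10 ± 0.26) and was 1.15 ± 0.26 with ponatinib 10 mg/kg, where its 9.66 to 16.1 CPM lay above the 3.02 to 8.24 CPM of control mice. With the counts of its pseudogenes added, Rps10 was 0.49 ± 0.14 with L-NAME and 0.61 ± 0.14 with ponatinib 10 mg/kg (edgeR adjusted p = 0.012 and 0.0018), so the size of its change depended on where the reads were counted. Rps12 had 1.39 ± 0.49 with ponatinib 10 mg/kg at a median of 2.31 CPM in control mice, and edgeR's adjusted p of 0.049 lay close to the threshold. Rps14 and Rps19 are genes linked to acquired or inherited anaemia. Rps19 had 25.7 to 38.6 CPM in control mice, 45.4 to 68.1 at the high nilotinib dose, without overlap, and 35.5 to 73.2 with imatinib, with 7 of 8 mice above control. Its log2 fold change was 0.82 ± 0.15 with imatinib and 0.73 ± 0.15 at the high nilotinib dose (edgeR adjusted p = 0.00017 and 0.0016). Rps14 had 77.5 to 111 CPM in control mice and 98.2 to 177 at the high ponatinib dose, where it was 0.59 ± 0.12 higher on the log2 scale (edgeR adjusted p = 0.00079).

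Rps15, a protein of the small subunit near the decoding site, had 80.9 to 102 CPM in control mice, 107 to 165 and 111 to 144 at the low and high nilotinib dose and 110 to 252 with L-NAME. These 3 groups did not overlap with control. The log2 fold change of Rps15 was 0.52 ± 0.14 and 0.48 ± 0.14 at the nilotinib doses and 0.76 ± 0.14 with L-NAME (edgeR adjusted p = 0.039, 0.024 and 0.00019). Of the large subunit, Rpl30, known to bind its own transcript in yeast, had 5.79 to 23.5 CPM in control mice and 15.2 to 31.7 at the low nilotinib dose, where it had the largest change of the called members (0.73 ± 0.20, edgeR adjusted p = 0.039). Rpl37a was among the 3 largest with L-NAME (1.03 ± 0.31, edgeR adjusted p = 0.02), and its 3.77 to 20.3 CPM overlapped with the 1.75 to 10.4 CPM of control mice.

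**Figure D5:**
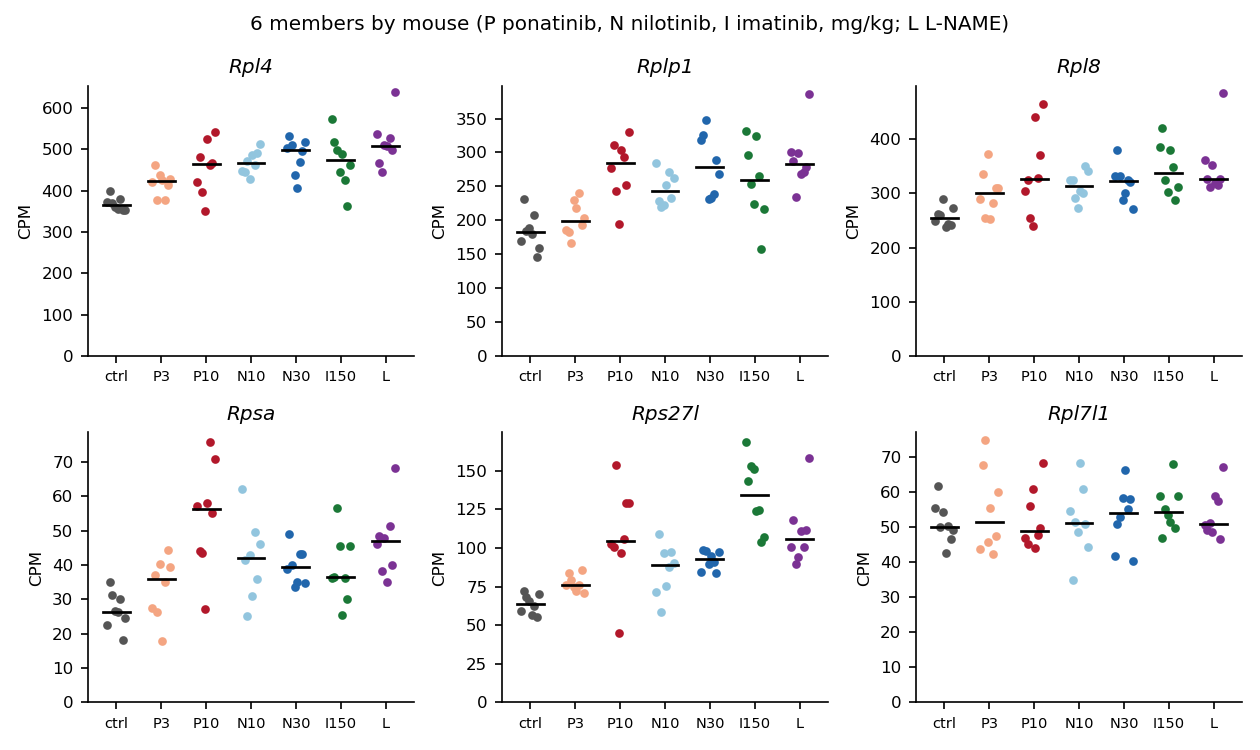
CPM (y axis, from 0) of 6 members in each mouse (points) with the group median (line), for control, ponatinib 3 and 10, nilotinib 10 and 30, imatinib 150 mg/kg and L-NAME (x axis). The Rps27l values with imatinib lie between 104 and 169 CPM, above all control mice, and the Rpl7l1 values overlap in all groups.

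Paralogs differed in what could be measured. Rps27l, a relative of Rps27 known as a target of p53, had 55.1 to 72.4 CPM in control mice and 104 to 169 CPM with imatinib, where it changed most, by 1.08 ± 0.13 on the log2 scale (edgeR adjusted p = 1.8e-07). It was 0.76 ± 0.13 with ponatinib 10 mg/kg, 0.80 ± 0.13 with L-NAME and 0.53 ± 0.13 with nilotinib 30 mg/kg. A mouse of the high ponatinib dose, at 45.2 CPM, lay below every control mouse, and the other 7 lay above all of them. Rps27 itself had 0.743 CPM in control mice and its log2 fold change had a standard error above 1 (0.89 ± 1.04 with L-NAME). Rpl7l1, a relative of Rpl7 known from large-subunit precursors, had a median of 50.2 CPM in control mice and 48.8 to 54.3 CPM in the treated groups. Its log2 fold change lay between 0.01 and 0.11 in all 6 comparisons, with standard errors of 0.12. Rpl7 was 0.36 ± 0.13 with ponatinib 10 mg/kg (edgeR adjusted p = 0.052). Rpl22 was called with L-NAME (0.35 ± 0.12, edgeR adjusted p = 0.036), where its 102 to 137 CPM lay above the 71.4 to 98.8 CPM of control mice. On the counts of the genes alone, Rpl22l1, Rpl3, Rpl10 and Rps4x passed in no comparison with control. With the counts of its pseudogenes added, Rpl3 was called with ponatinib 10 mg/kg (0.34 ± 0.12, edgeR adjusted p = 0.041).

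For Rps6 the counts on the gene alone gave a log2 fold change of 0.62 ± 0.89 at the high ponatinib dose, which was not distinguishable from 0 at this depth. With the counts of its pseudogenes added, the value was 0.54 ± 0.11 with ponatinib 10 mg/kg and 0.59 ± 0.11 with L-NAME (edgeR adjusted p = 0.00083 and 0.00038). Rps13 and Rps16 with their pseudogenes were 0.67 ± 0.15 and 0.66 ± 0.17 at the high ponatinib dose (edgeR adjusted p = 0.0013 and 0.0064). Adding pseudogenes to the 57 members that had named ones gave 42 of all 80 tested members called higher with ponatinib 10 mg/kg. In that fit 13.1% of all genes were called in either direction. The 42 held all 33 members called on the genes alone. Reads counted on a pseudogene may come from its own transcript or from the gene. Rpl5 and Rpl11, which carry the 5S RNA, Rpl23a and Rpl35, where the signal recognition particle docks, and Rps27a, made as a fusion to ubiquitin, passed in no comparison. For Rpl23a and Rpl35 the lack of a call decides nothing, at control means of 0.52 and 0.39 CPM. They had 0 counts in 17 and 24 of 56 mice. Mean Rps27a was 2.67 CPM in control mice, 5.82 in the imatinib group and 6.09 at the high nilotinib dose, with overlap. Counting its pseudogenes in, the log2 fold changes of Rps27a there were 1.04 ± 0.39 and 1.15 ± 0.39 (edgeR adjusted p = 0.071 and 0.063). The other treated groups had 0.24 to 0.84. Rpl41, which encodes the shortest of the proteins, rose with imatinib (0.61 ± 0.18), ponatinib 10 mg/kg (0.60 ± 0.18) and L-NAME (0.75 ± 0.18).

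The doses of a drug were compared with each other. Ponatinib 10 against 3 mg/kg gave 11 members higher, 13.9% against 0.971% of all tested genes, and 0 lower, against 0.419%. At an unadjusted p below 0.01, 18 members were higher, against 3.13% of all genes. Rps10 (0.97 ± 0.26), Rpsa (0.69 ± 0.17) and Rpl34 (0.65 ± 0.15) had the largest changes of the 11 on the counts of the genes alone. With the counts of their pseudogenes added, the values were 0.52 ± 0.14 for Rps10, 0.42 ± 0.13 for Rpsa and 0.65 ± 0.15 for Rpl34 (edgeR adjusted p = 0.038, 0.082 and 0.018), and Rpsa was not called. No member was called in a fit of these 2 groups alone, where 0.257% of all genes were called. With the share of reads outside genes as a covariate, 0 members and 0 genes were called. Nilotinib 30 against 10 mg/kg gave 0 calls among members and 0 among all 14314 genes, and DESeq2 called 2 genes and 0 members. There 2 members had an unadjusted p below 0.05, against 5.67% of all genes, and 0 were higher at a p below 0.01, against 0.685%. The members' median was 0.02. For Rpl4 the 95% interval of the log2 difference was -0.12 to 0.22. At the same dose of 10 mg/kg, 0 members were called between ponatinib and nilotinib by edgeR, with 1.03% of all genes called higher and 1.03% lower. DESeq2 also called 0 members, and 3.72% of all genes. Here 10 members had an unadjusted p below 0.05, against 15.3% of all genes, and 1 was higher at a p below 0.01, against 3.67%, namely Rps2. The members' median was 0.11. The interval of the difference was -0.21 to 0.13 for Rpl4, -0.08 to 0.39 for Rplp1 and 0.03 to 0.72 for Rpsa. These values do not show that the drugs act alike. Leaving out the 2 libraries far out on the second principal component, 3 members were called in this comparison, against 3.06% of all genes. Between the ponatinib doses 18 were called, against 4.82%. Both shares count calls in either direction.

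Other genes of translation were counted from lists. Of all tested genes, 7.24% were called higher and 5.87% lower at the high ponatinib dose. These shares were 5.55% and 6.24% with L-NAME and 5.69% and 4.58% with imatinib. They were 0.468% and 0.943% at the low nilotinib dose and 2.34% and 3.43% at the high one. Among elongation factors 3 of 7 rose with ponatinib 10 mg/kg, led by Eef1g (0.65 ± 0.13) and Eef1d (0.62 ± 0.15), with 0 lower and a median of 0.20. Other cytosolic ribosome proteins had 2 of 4 higher, Rack1 (0.35 ± 0.09) and Rpl36al (0.70 ± 0.19). Of 12 other mRNAs known for a terminal tract, Naca (0.72 ± 0.18) and Npm1 (0.52 ± 0.14) rose and Pabpc1 fell by 0.43 on the log2 scale. Ribosome biogenesis genes, which make and assemble the particles in the nucleolus, had 1 of 34 higher, Nop10 (0.47 ± 0.15), and 0 lower, with a median of -0.13. In the list of mTORC1 and S6 kinase genes 0 of 20 rose and 1 fell, Eif4ebp2, an inhibitor of cap-dependent translation, by 1.18 on the log2 scale (edgeR adjusted p = 0.0022). With L-NAME the numbers were 3 of 7 elongation factors, 1 of 4 ribosome proteins and 2 of 12 tract mRNAs higher, with 1 tract mRNA, 2 of 34 biogenesis and 3 of 20 mTORC1 genes lower and 1 biogenesis gene higher. With imatinib 2, 2 and 4 of these first 3 lists rose, 2 tract mRNAs fell, 1 biogenesis gene moved each way and 0 mTORC1 genes were called. The low nilotinib dose had 2 elongation factors and 1 tract mRNA higher and 2 mTORC1 genes lower. At the high dose 1, 1 and 2 of the first 3 lists and 1 biogenesis gene rose, and 1 tract mRNA and 3 mTORC1 genes fell. The low ponatinib dose had 0 calls in all 5 lists, as against 0.0419% of all genes. The lists were chosen with earlier results of these data known, and the medians of the biogenesis list lay between -0.13 and 0.01 over the 6 comparisons.

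Markers of other cells moved with some groups. Of all tested genes, 7.24% were called higher and 5.87% lower at the high ponatinib dose, and 0.0% and 0.0419% at the low one. These shares were 5.55% and 6.24% with L-NAME and 5.69% and 4.58% with imatinib. They were 0.468% and 0.943% at the low nilotinib dose and 2.34% and 3.43% at the high one. Of 5 erythroid markers 4 were called higher with ponatinib 10 mg/kg, with a summed level of 162 to 1128 CPM against 149 to 420 CPM in control mice and no marker at 0 in all mice of a group. At the low ponatinib dose, where no member was called, that sum was 190 to 1331 CPM and 0 of 5 markers were called. Of 6 Kupffer cell markers 2 were lower with imatinib, 345 to 762 CPM against 650 to 1319 CPM, 2 were higher with ponatinib 10 mg/kg, and 1 was higher with L-NAME and 1 at the high nilotinib dose. Of 6 hepatocyte markers 3 were lower and 1 higher with L-NAME and at the high nilotinib dose, 2 were lower and 2 higher with imatinib and at the high ponatinib dose, and 2 were lower at the low nilotinib dose. A lymphocyte marker was lower with imatinib. No marker of endothelial, stellate or bile duct cells was called in any of the 6 comparisons. Of 4 neutrophil markers only 2 had counts enough to be tested, and neither was called. The median of the summed neutrophil level was 3.21 CPM in control mice, 7.16 with ponatinib 10 mg/kg and 9.57 with L-NAME, with overlap. In the other groups it was 2.06 to 4.00 CPM. The part of these cells in the members' values was not tested.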

How the data were processed

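Poly(A) RNA was sequenced with a kit that does not mark strand. The authors aligned the reads with TopHat2 2.0.14 and Bowtie2 2.1.0 on GRCm38, and HTSeq 0.6.1p1 made the deposited counts, which are raw. Annotation release and read length are not given in the sources used here. HTSeq's summary lines were left out of library sizes and tests. From the counts, edgeR 4.0.16 fitted 7 group means over 56 mice with TMM factors and filterByExpr. DESeq2 1.42.0 was an alternative. Standard errors are the fold change divided by the square root of F, and intervals used 49 degrees of freedom. Libraries of one group are separate mice by the labels. The members and lists were chosen with earlier results of these data known. Named were, per comparison with control, the 3 called members of largest change and the 3 of highest level per kb, plus members of fixed roles and those not tested. Some members are not reported here. The settings that leave out the deepest library or the 2 libraries far on the second principal component were chosen after seeing the data. The script was tested on simulated data.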

Additional observations from a re-analysis of the deposited data

Results flagged for a closer look

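A mouse far from the rest was sought in 238 sets of 8 values, each for 1 member or the summed share in 1 group. It was found in 22, or 9.24%. Chance gives about 1 in 20 for a single set, but the sets share mice and are not independent. The lowest mouse stood apart for Rpl11 (0.674 CPM) and Rps27a (1.63) with L-NAME, for Rpl17 (0.0), Rpl30 (5.79) and Rpl5 (7.83) in control mice, and for Rpl17 (0.28), Rps12 (0.675) and Rps15 (66.5) with ponatinib 3 mg/kg. With ponatinib 10 mg/kg it did so for Rpl39 (6.13 CPM), Rpl41 (22.7), Rps27l (45.2) and Rps4x (51.9). With nilotinib 30 mg/kg the lowest values were Rpl22l1 (5.62 CPM), Rpl5 (7.77), Rps10 (2.11) and Rps4x (52.8), with nilotinib 10 mg/kg Rpl41 (16.5), and with imatinib Rpl39 (7.56), Rps12 (2.29) and Rps27a (1.99). The highest mouse stood apart for Rpl22 (137) and Rpl8 (486) with L-NAME.

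Reads that entered no gene count differed from control mice. The median share of uniquely aligned reads outside annotated genes was 9.801% with imatinib, 9.509% and 9.843% with nilotinib 10 and 30 mg/kg, 10.95% with ponatinib 10 mg/kg and 10.67% with L-NAME, each above the highest control mouse. The median share of alignments that were not unique was 37.09% with imatinib, 35.16% and 36.01% with nilotinib 10 and 30 mg/kg, 35.63% with ponatinib 10 mg/kg and 35.62% with L-NAME, also above the highest control mouse. Reads that fitted more than 1 annotated gene also entered no count, and their median share of uniquely aligned reads was 2.94% in control mice. It was 2.31% with imatinib, 2.50% with L-NAME, and 2.67% and 2.63% with nilotinib 10 and 30 mg/kg. With ponatinib 3 and 10 mg/kg it was 2.88% and 2.61%. The part of these reads in the members' values was not tested beyond the fit with the share outside genes as covariate.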

How the results depend on the processing

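No paired analysis was possible because replicate numbers were given in accession order and pair no mice. Of the named members, no called one changed direction in any alternative that gave it a p. No member at all was called lower in any alternative. Percentages of all genes in this paragraph count calls in either direction unless marked as higher. With the share of reads outside genes as a covariate, 17 members were called with imatinib (4.56% of all genes), 0 with nilotinib 10 mg/kg (0.0908%), 6 with nilotinib 30 mg/kg (0.671%), 16 with ponatinib 10 mg/kg (2.58%), 17 with L-NAME (1.80%) and 0 between the ponatinib doses (0.0%), and the members' median in the first 5 of these was 0.33 to 0.46. With the length and GC offset the counts were 18 with imatinib (7.69%), 12 with nilotinib 30 mg/kg (3.72%), 22 with L-NAME (7.97%) and 4 between the ponatinib doses (0.943%). The members' median went from 0.61 to 0.40 with L-NAME and from 0.55 to 0.40 with ponatinib 10 mg/kg. It went from 0.50 to 0.37 with imatinib and from 0.48 to 0.36 with nilotinib 30 mg/kg. For nilotinib 10 mg/kg, 3 were called with no filter on low counts (0.528% of all genes) and 24 with DESeq2 (3.64%). At an unadjusted p below 0.01 there were 26 (5.97% of all genes, 2.32% higher), and 1 with ponatinib 3 mg/kg (3.14%, 1.4% higher). That cut-off called 18 between the ponatinib doses (5.785%, 3.13% higher) and 1 between ponatinib and nilotinib at 10 mg/kg (6.735%, 3.67% higher). Between the ponatinib doses 5 were called with no filter (0.416%) and 0 in a fit of only the 2 groups (0.257%). Without the 2 libraries far on the second principal component, 18 were called between the ponatinib doses (4.82% of all genes) and 3 between ponatinib and nilotinib (3.06%). The cause was not tested. RLE factors, total counts, pseudogene counts added and leaving out the deepest library kept all 9 counts within 1.5 times. Total counts moved the median of all genes to -0.11 between ponatinib and nilotinib at 10 mg/kg, where the members' median stood at 0.00025. They changed the share of all calls that were higher from 55.3% to 39.5% at the high ponatinib dose, 55.4% to 40.1% with imatinib, 33.2% to 58.1% and 40.6% to 57.0% at the low and high nilotinib dose, and 50.2% to 21.9% between the drugs. Both settings that leave out libraries were chosen after seeing the data. Members with few counts are limited by depth.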
